A study of Mus musculus with 12 samples.

Results

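The comparison described here is between mouse lung taken 8 days after irradiation and mouse lung that was not irradiated. It uses the 6 samples that the titles assign to those groups, 3 in each, out of 12 samples in the series. All genes were compared, after lines with a shared gene symbol were summed, which gave 23238 symbols, of which 16484 had enough counts to be tested. The remaining 6 samples were taken 11 and 14 days after irradiation. They enter the fit, and their levels are given for the few genes whose 8 d change did not last. The sources used here do not give strain, age, radiation dose or the part of the lung from which control tissue came. The series description says that irradiated tissue was taken only from the exposed part of the lung. The labels number the replicates without saying that each is a separate animal, so a p-value here speaks of differences among samples that may be technical replicates.

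The gas-exchange surface of the lung is a thin epithelium laid over a dense capillary bed. That bed holds aerocytes, which are large endothelial cells specialised for gas exchange, and general capillary cells, which can divide and renew the bed. Endothelial and dividing cells are among the radiation-sensitive cells of the lung, and the first weeks after exposure are known for vascular leakage and inflammation that precede pneumonitis. Responses of p53 targets, interferon-stimulated genes and leukocyte markers are the best known part of this period, and the lists below cover other pathways and cell types.

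The libraries held between 26164354 and 27765751 counts without irradiation and between 20792968 and 22660158 at 8 d. Lung identity was checked with 4 genes. The surfactant protein C gene Sftpc stood at 19000, 23000 and 21330 CPM without irradiation and 16740, 16480 and 14410 CPM at 8 d, and Ager, of type 1 alveolar cells, Scgb1a1, of club cells, and Nkx2-1, the lung epithelial transcription factor, were detected in all 6 libraries. CPM stands for counts scaled to the usual reference depth after normalization of the library size. The summed level of 12 genes common to leukocytes was 812.2 to 930 CPM without irradiation and 1502 to 1940 CPM at 8 d, with 11 of the 12 called higher. Over all tested genes 13% were called higher and 10.6% lower. Skeletal muscle markers, of which 3 of 8 were called higher, summed to at most 17.05 CPM in any of the 6 libraries. Cardiac muscle markers, which are present in pulmonary veins, summed to 118.3 to 207.8 CPM without irradiation and 73.5 to 301 CPM at 8 d. Of these 1 of 9 was called lower, 11.1% beside 10.6% of all genes. Erythroid markers ranged over 175 to 321.6 CPM and 190.9 to 378 CPM, with 1 of 9 called higher, 11.1% beside 13% of all genes. Immediate early genes, which also respond to handling of tissue, summed to 506 to 745.4 CPM and 637.5 to 861.2 CPM, with 7 of 15 called higher and 1 lower, and unirradiated replicate 3 stood apart from replicates 1 and 2 in some of them, for example Nr4a1, which encodes a nuclear receptor, at 9.08, 8.78 and 40.8 CPM. In whole-tissue RNA, fewer cells of a type and less RNA per cell cannot be told apart. The part of the leukocyte shift in the changes below was not tested.

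At 8 d, 3891 of the 16484 tested genes were called at an adjusted p below 0.05, which is 23.6% of them. Of these 2139 were higher, or 13% of tested genes, and 1752 were lower, or 10.6%. The median log2 change over all tested genes was 0.01. The 8 d libraries all lay above every control in 19.76% of tested genes and all below in 18.49%. Genes named for a low p were likely to be separated in this way, so separate groups add little support. Each of 51 lists of pathway and cell type genes is read below against these shares. The lists and their members were chosen with earlier results of these data known. A share far from that of all genes can follow in part from this choice and is not an independent test. Lists share members, so their counts are not separate findings. Ednrb is in the aerocyte and vasoactive lists, Hey1 in the arterial and Notch lists and Efnb2 in the arterial and guidance lists. The lists with the largest part of their tested members called lower were those of general capillary cells with 14 of 14, aerocytes with 9 of 13, arterial endothelium with 10 of 15, vasoactive signalling with 18 of 30 and the circadian clock with 11 of 19. On the side of higher genes stood acute-phase proteins with 14 of 27, metalloproteinases and their inhibitors with 14 of 31 and DNA replication with 14 of 32.

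**Figure D1:**
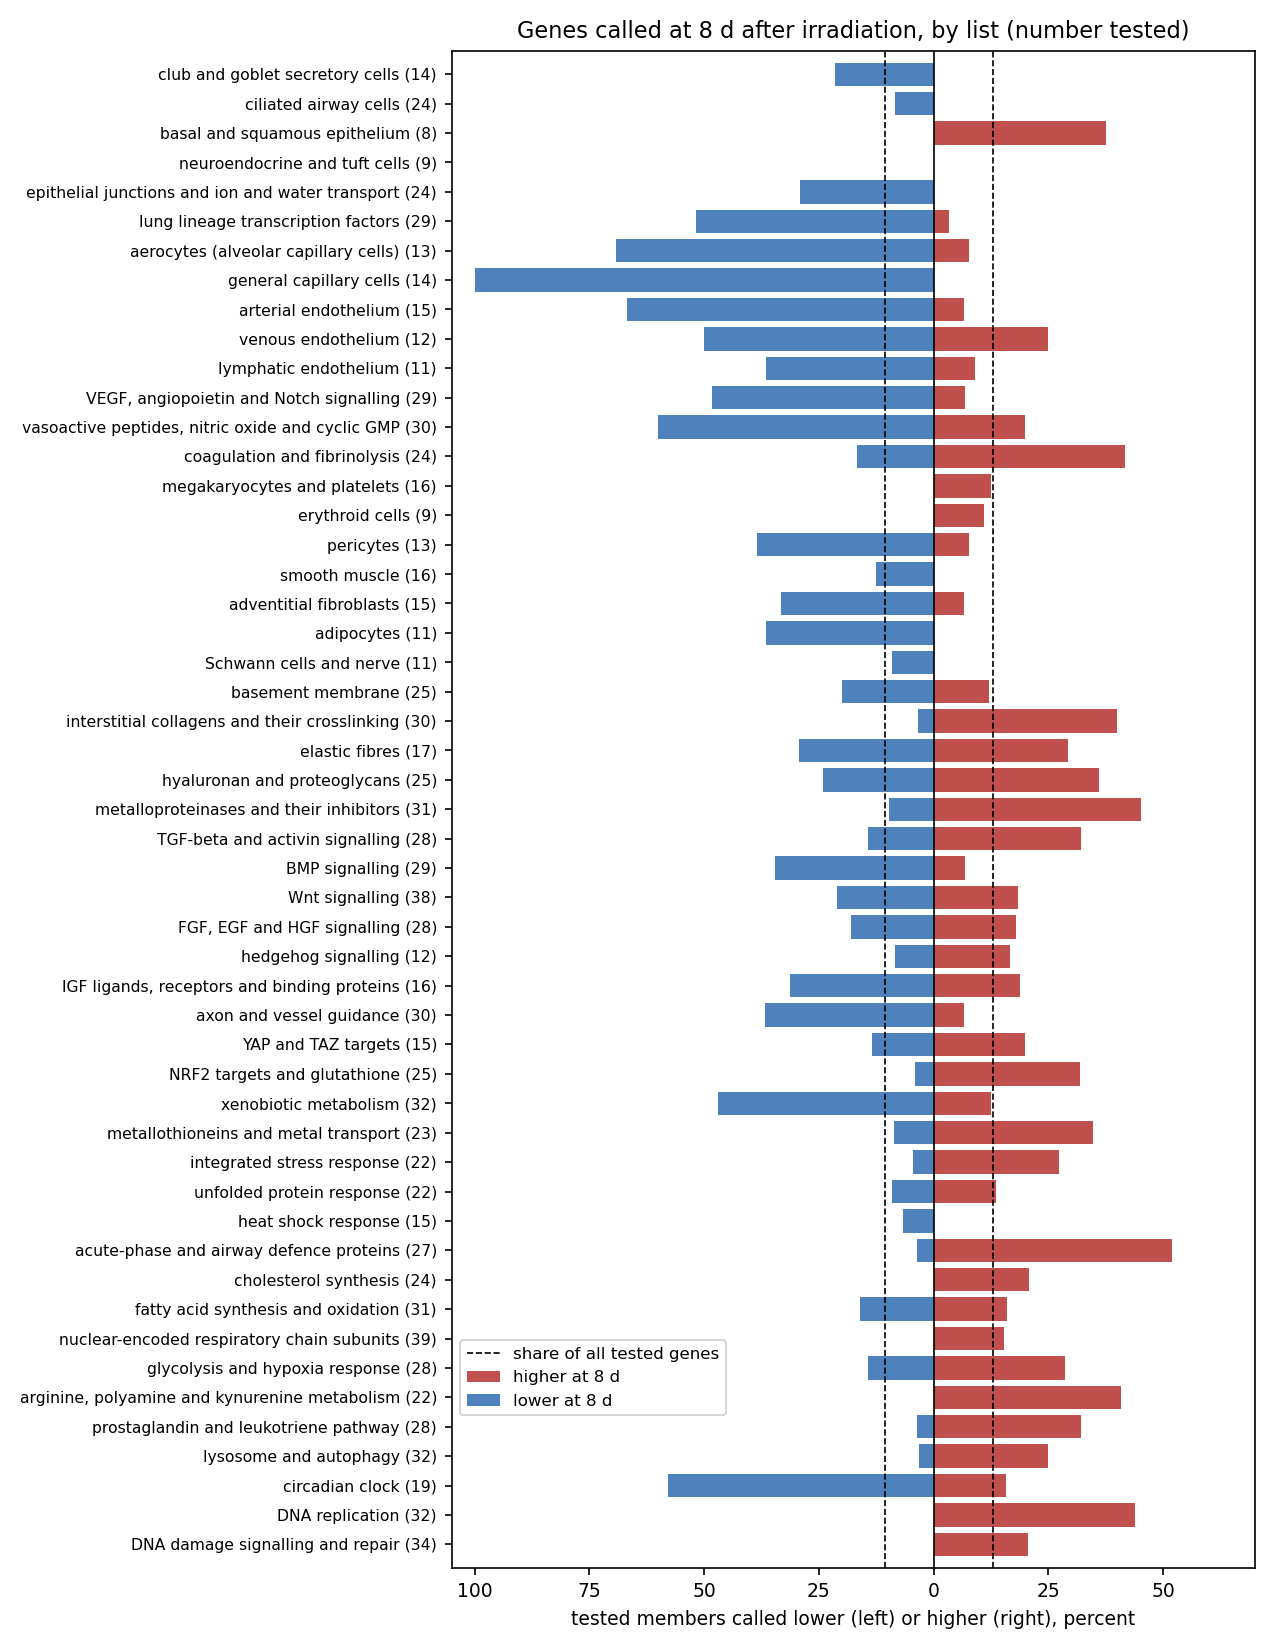
Share of the tested members of each list (number tested in parentheses) that was called lower (left, blue) or higher (right, red) at 8 d than in unirradiated lung, in percent. Dashed lines mark the shares over all tested genes, 10.6% lower and 13% higher. The lists were chosen with earlier results of these data known, so their distance from the lines is not an independent test. The endothelial lists reach far to the left, and acute-phase proteins, metalloproteinases, DNA replication and collagens to the right.

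All 14 tested markers of general capillary cells fell, with a median log2 change of -1.46. Kit, the receptor of stem cell factor that marks these cells in lung (mm10 chromosome 5, 75574916 to 75656722, plus strand), stood at 196, 176 and 193 CPM in the unirradiated libraries and at 52.8, 41.2 and 51.7 CPM at 8 d. The groups were far apart, with a change of -1.95 log2 units (SE 0.15, adjusted p = 1.8e-06). Gpihbp1, which anchors lipoprotein lipase on the capillary wall (chromosome 15, 75596628 to 75599481, plus strand), was measured at 261, 298 and 244 CPM without irradiation and 54.2, 73.1 and 47.1 CPM at 8 d, a change of -2.20 log2 units (SE 0.21, adjusted p = 1.1e-05). Ptprb, the vascular phosphatase that restrains the angiopoietin receptor, went from 1260, 1156 and 1023 CPM to 434, 222 and 345 CPM, a change of -1.78 log2 units (SE 0.22, adjusted p = 7.3e-05). In each of these genes the highest 8 d library lay below the lowest unirradiated one. Glp1r, the receptor of glucagon-like peptide 1, changed by -1.74 on the log2 scale (SE 0.25), the lipid droplet gene Hilpda by -1.59 (SE 0.24), the apelin receptor Aplnr by -1.32 (SE 0.26) and Plvap, which builds the diaphragms of fenestrae and caveolae, by -1.02 (SE 0.21). The smallest changes of the list were those of Cd93 and Ntrk2, with log2 changes of -0.61 and -0.61, and the call of Ntrk2 was lost in 5 of the other settings, for example without unirradiated replicate 2.

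Aerocyte markers split, with 9 of 13 lower and 1 higher (median log2 change -0.65). Ednrb, the endothelin receptor that marks aerocytes (chromosome 14, 103814625 to 103844402, minus strand), was at 90.4, 85.6 and 98.2 CPM without irradiation and at 17.2, 19 and 19.9 CPM at 8 d, a change of -2.29 log2 units (SE 0.25, adjusted p = 3.4e-05). Fibin, a secreted protein, had 70.7, 74.2 and 48.6 CPM and 12.2, 13.7 and 13.5 CPM, a change of -2.30 log2 units (SE 0.24, adjusted p = 2.3e-05). Neither gene had overlapping groups. The member that rose was Apln, which encodes the peptide ligand of the apelin receptor (chromosome X, 48025146 to 48034853, minus strand). It stood at 28.4, 25.7 and 33.9 CPM in unirradiated lung and at 66.1, 97.6 and 82.6 CPM at 8 d, a change of 1.48 log2 units (SE 0.17, adjusted p = 4.9e-05). Apln was thus higher in every 8 d library, against most of its list. The receptor gene Aplnr, in the list of general capillary cells, was lower in every one, at 23.8, 25.2 and 31.5 CPM against 13.6, 10.7 and 8 CPM. Which cells carried either change was not tested. The carbonic anhydrase gene Car4 had a log2 change of -0.61 (adjusted p = 0.0222) whose call was lost when any of 4 libraries was left out. Kdr, the main VEGF receptor, did not pass the test, with a log2 change of -0.33 (SE 0.20).

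Arterial, venous and lymphatic lists also had more members lower than higher. Of 15 arterial genes 10 fell and 1 rose. Sox17, a transcription factor of arterial endothelium, was at 18.2, 20.9 and 17.4 CPM and 6.7, 7.97 and 8.67 CPM, a change of -1.27 log2 units (SE 0.15, adjusted p = 5.1e-05). Efnb2, the arterial ephrin ligand (chromosome 8, 8617434 to 8661242, minus strand), was at 225, 220.3 and 238 CPM and 89.3, 80.5 and 81.4 CPM, a change of -1.44 log2 units (SE 0.19, adjusted p = 0.00011). Both were lower in all 3 libraries at 8 d. The arterial gene that rose was Kcnn4, a calcium-activated potassium channel that leukocytes also express, from 2.49 ± 0.306 to 10.9 ± 0.77 CPM (SD, n = 3) or by 2.13 on the log2 scale (SE 0.18).

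Among 12 venous genes 6 fell and 3 rose. Slc6a2, the noradrenaline transporter, fell from 62.3, 67.4 and 46.3 CPM to 14.4, 11.7 and 14.4 CPM, a change of -2.12 log2 units (SE 0.26, adjusted p = 5.8e-05). Vwf, which encodes von Willebrand factor, had a log2 change of -1.29 (SE 0.24). The venous genes that rose include the leukocyte adhesion molecules Selp, or P-selectin, and Vcam1. Selp was at 2.98, 2.62 and 3.76 CPM and 8.76, 10 and 11.4 CPM, a change of 1.69 log2 units (SE 0.19, adjusted p = 4.3e-05), and Vcam1 at 58.7, 57.6 and 49.5 CPM and 95.4, 126 and 118 CPM, a change of 1.04 log2 units (SE 0.16, adjusted p = 0.00047). The platelet list also holds Selp. Of its 16 tested members 2, Selp and F2rl2, were called higher, 12.5% beside 13% of all genes, and none lower. The call of F2rl2 was lost whichever library of these groups was left out. The summed level of the list was 86.4 to 97.75 CPM without irradiation and 98.4 to 116 CPM at 8 d. Which cells carried the rise of Selp was not tested. The counts for lymphatic endothelium, 4 lower and 1 higher of 11, rest on single libraries, since leaving out 1 library left between 1 and 3 members lower. Ccl21a, the lymphatic chemokine, had the lowest p of that list (log2 change -1.17, SE 0.19), and near-identical copies of it in the genome make its count uncertain.

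**Figure D2:**
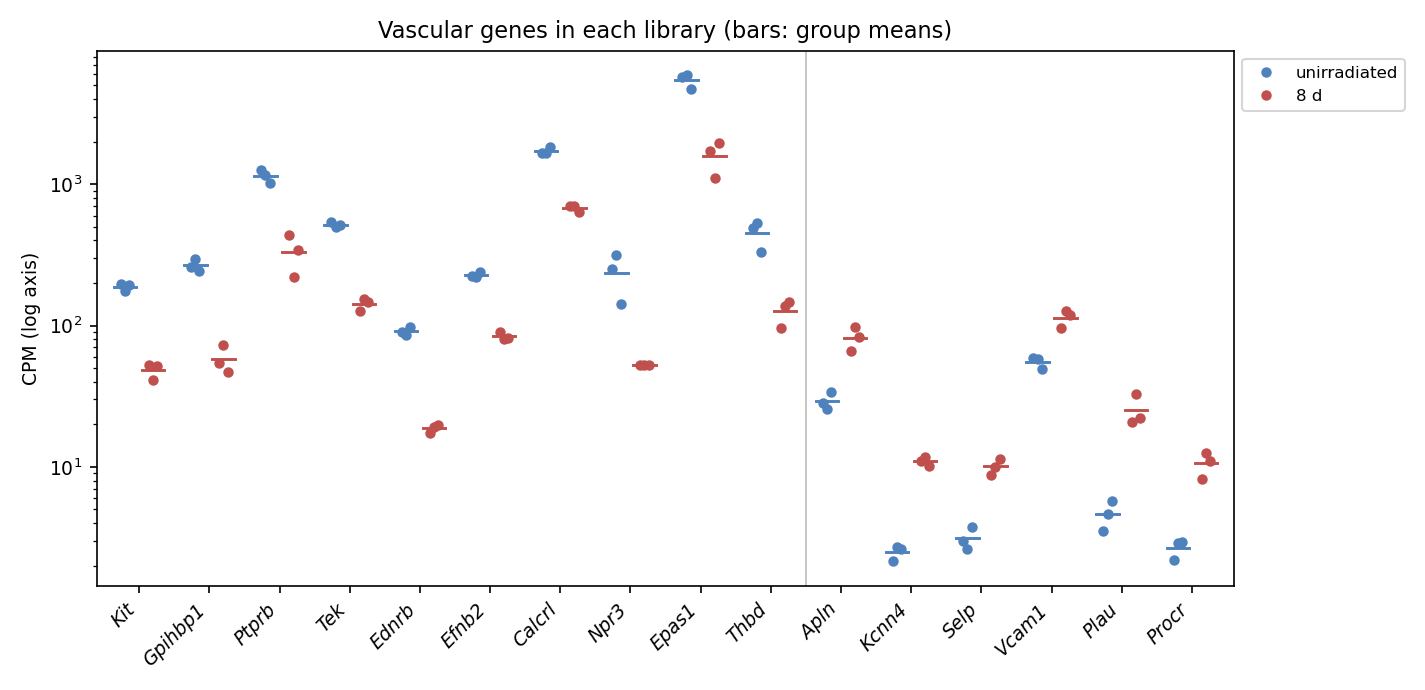
CPM on a log axis of 16 vascular genes in each of the 3 unirradiated (blue) and 3 irradiated libraries at 8 d (red), with bars at the group means. To the left of the grey line are 10 genes that were lower in every 8 d library, from Kit to Thbd, and to the right 6 that were higher in every one, from Apln to Procr.

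Of 29 genes of VEGF, angiopoietin and Notch signalling 14 fell and 2 rose (median log2 change -0.52), and the count of lower genes was 9 without unirradiated replicate 2. The tip cell gene Esm1 was at 28.6, 32.3 and 25.2 CPM and 9.28, 7.88 and 6.42 CPM, a change of -1.87 log2 units (SE 0.21, adjusted p = 3.9e-05). The decoy VEGF receptor Flt1 changed by -1.20 (SE 0.21), the Notch ligand Dll4 by -1.15 (SE 0.18), the receptor Notch4 by -1.17 (SE 0.21) and the Notch target Hey1 by -1.25 (SE 0.15). Vegfa itself fell from 919 ± 114 to 509 ± 66.1 CPM (SD, n = 3; log2 change -0.85, SE 0.18). Besides Apln, the gene that rose was Pgf, the placental growth factor, from 2.26, 3.98 and 3.11 CPM to 8.39, 9.95 and 7.79 CPM, a change of 1.48 log2 units (SE 0.24, adjusted p = 0.00056). Guidance genes shared with the vessel wall followed the same direction, with 11 of 30 lower and 2 higher. Ntn4 and Sema3g, secreted ligands made by endothelium, changed by -1.40 (SE 0.18) and -1.75 (SE 0.23) on the log2 scale, whereas the Eph receptors Epha2 and Epha4 rose by 0.84 (SE 0.17) and 0.71 (SE 0.16).

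The control of vascular tone was the widest change among signalling lists, with 18 of 30 genes lower and 6 higher (median log2 change -0.73). Receptors and their partners were prominent. Calcrl, the receptor of adrenomedullin and calcitonin gene-related peptide (chromosome 2, 84330626 to 84425411, minus strand), stood at 1674, 1663 and 1848 CPM in unirradiated lung and 707, 705 and 640.5 CPM at 8 d, a change of -1.34 log2 units (SE 0.14, adjusted p = 2.5e-05). Its partner Ramp2, which makes it an adrenomedullin receptor, went from 433, 516 and 331 CPM to 130.4, 124 and 125 CPM, a change of -1.75 log2 units (SE 0.22, adjusted p = 8.1e-05). The peptide gene Adm moved the other way, from 4.07, 5.9 and 4.26 CPM to 6.75, 23.6 and 12.5 CPM, a change of 1.59 log2 units (SE 0.35, adjusted p = 0.0049), with 8 d replicate 1 only a little above the control range. Npr3, the clearance receptor of natriuretic peptides, was at 252, 317 and 142 CPM and 52.7, 52.9 and 52.2 CPM, a change of -2.17 log2 units (SE 0.26, adjusted p = 5.3e-05), and the angiotensin receptor Agtr1a at 7.42, 7.57 and 6.5 CPM and 2.3, 2.3 and 2.38 CPM, a change of -1.62 log2 units (SE 0.20, adjusted p = 6.7e-05). The 3 irradiated values of Npr3 were nearly equal, and the unirradiated ones varied more than 2-fold. Enzymes that make or remove vasoactive peptides were also lower: Ace, the angiotensin-converting enzyme, changed by -0.99 (SE 0.23) and Ece1, the endothelin-converting enzyme, by -0.90 (SE 0.19). Of the nitric oxide and cyclic GMP branch, the cyclase subunits Gucy1a3 and Gucy1b3 changed by -0.89 (SE 0.13) and -0.89 (SE 0.19), the kinase Prkg1 by -1.05 (SE 0.14) and the phosphodiesterase Pde5a by -0.86 (SE 0.16). Nos3, endothelial nitric oxide synthase, did not pass (log2 change 0.10, SE 0.19). The other genes that rose are receptors: the adenosine receptor Adora2a went from 1.3 ± 0.383 to 4.84 ± 0.749 CPM, the prostacyclin receptor Ptgir from 1.73 ± 1.16 to 5.27 ± 1.62 CPM and the kinin receptor Bdkrb1 from 0.552 ± 0.177 to 1.9 ± 0.155 CPM (SD, n = 3).

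In coagulation and fibrinolysis 10 of 24 genes rose and 4 fell. The anticoagulant surface protein thrombomodulin, Thbd, was at 490.4, 534 and 332 CPM and 96.4, 138 and 146 CPM, a change of -1.83 log2 units (SE 0.23, adjusted p = 8.1e-05). Procr, the protein C receptor that works beside it, went the opposite way, from 2.19, 2.88 and 2.96 CPM to 8.25, 12.5 and 11 CPM, a change of 1.98 log2 units (SE 0.19, adjusted p = 8.9e-06). Plau, which encodes the plasminogen activator urokinase (chromosome 14, 20836660 to 20843385, plus strand), was at 3.54, 4.65 and 5.75 CPM and 20.9, 33 and 22.2 CPM, a change of 2.45 log2 units (SE 0.22, adjusted p = 7e-06). Of the fibrinogen genes Fga and Fgg rose at low levels, to 0.756 ± 0.0867 and 3.22 ± 0.895 CPM. None of the genes named here had overlapping groups, which follows in part from how they were chosen.

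Support cells of the vessel wall showed fewer calls. Of 13 pericyte genes 5 fell and 1 rose. Pdgfrb, the receptor that pericytes need, was at 66.7, 68 and 72.9 CPM and 43.6, 39.3 and 44.2 CPM, a change of -0.71 log2 units (SE 0.11, adjusted p = 0.00038), while Rgs5, a regulator of G protein signalling, rose from 1.21, 2.4 and 2.89 CPM to 10.2, 13.8 and 12.7 CPM, a change of 2.49 log2 units (SE 0.31, adjusted p = 7.9e-05). Both are used as pericyte markers, and they moved in opposite directions in all 3 libraries. Smooth muscle markers were called lower in 2 of 16, 12.5% beside 10.6% of all genes, and higher in none. These were Itga8, with a log2 change of -0.76 (SE 0.16), and the myosin kinase Mylk, with -0.67 (SE 0.15), while the contractile genes Acta2 (adjusted p = 0.998) and Myh11 (adjusted p = 0.232) did not pass. Adventitial fibroblast genes fell in 5 of 15, among them Igfbp6 from 239, 262 and 206 CPM to 86.1, 84.5 and 81.2 CPM, a change of -1.49 log2 units (SE 0.25, adjusted p = 0.00076), and the peptidase gene Dpp4 with a log2 change of -0.74 (SE 0.11). Adipocyte markers fell in 4 of 11 and rose in none, with a summed level of 224.1 to 239.9 CPM without irradiation and 108.3 to 146.9 CPM at 8 d. The lipid droplet gene Cidec was at 26, 26.6 and 23.1 CPM and 5.67, 3.56 and 5.96 CPM, a change of -2.31 log2 units (SE 0.33, adjusted p = 0.00019). Cidec and Pnpla2 are also expressed outside fat, and Adipoq and Plin1, which are more restricted to it, did not pass the test (log2 changes -2.23, SE 1.07, and -0.99, SE 0.83). Unirradiated replicate 3 held most of their RNA, with Adipoq at 0.264, 0.406 and 7.3 CPM in the controls, and without it the log2 changes were 0.73 for Adipoq and 1.04 for Plin1, neither called. With the replicate number as a block Adipoq was called lower (log2 change -1.86, adjusted p = 0.0371). Of 11 nerve and Schwann cell genes 1 was called lower, 9.09% beside 10.6% of all genes.

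Transcription factors that specify lung lineages were lower at 8 d in 15 of 29 cases and higher in 1 (median log2 change -0.59). The factors Erg, Sox7, Sox17, Sox18 and Klf2 belong to endothelium. The call of Klf2 (log2 change -0.60, adjusted p = 0.046) was lost with library size as the sole scaling and in the 6 samples alone. It was also lost without 8 d replicate 1 or without unirradiated replicate 1, 2 or 3. Erg (chromosome 16, 95359169 to 95586593, minus strand) was at 177, 192 and 189.8 CPM and 78.8, 109 and 105 CPM, a change of -0.93 log2 units (SE 0.16, adjusted p = 0.00079). Factors of mesenchyme and epithelium fell too. Foxf1, which acts in lung mesenchyme and endothelium, changed by -0.97 (SE 0.21), Tbx5 by -0.61 (SE 0.14) and Hopx, a marker of type 1 alveolar cells, by -0.87 (SE 0.15). The epithelial master regulator Nkx2-1 did not pass, at 171, 135 and 147 CPM and 114, 137 and 123 CPM with overlapping groups (log2 change -0.28, SE 0.14). Sox4, a progenitor factor, was the member called higher (log2 change 0.64), a call that was lost without 8 d replicate 3 or unirradiated replicate 1 or 2. Epas1, which encodes the hypoxia factor HIF-2 alpha and is abundant in lung endothelium (chromosome 17, 86753700 to 86833410, plus strand), was at 5725, 5923 and 4758 CPM and 1709, 1099 and 1943 CPM, a change of -1.79 log2 units (SE 0.23, adjusted p = 9.4e-05).

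Ligands and modulators of the TGF-beta superfamily went in opposite directions. In the BMP branch, which keeps lung vessels quiescent, 10 of 29 genes fell and 2 rose (median log2 change -0.47). Tmem100, an endothelial membrane protein downstream of BMP receptors, was at 319, 405 and 345 CPM and 71, 115 and 88.1 CPM, a change of -1.96 log2 units (SE 0.25, adjusted p = 9.1e-05). The ligand Bmp6 changed by -1.32 (SE 0.18), the receptor Bmpr2 by -0.87 (SE 0.21), the inhibitory Smad6 by -1.32 (SE 0.26) and the antagonist Chrdl1 by -1.55 (SE 0.26) on the log2 scale. Nog, which encodes the BMP antagonist noggin (chromosome 11, 89300638 to 89302332, minus strand), rose from 0.113, 0.184 and 0.217 CPM to 1.08, 2.07 and 1.42 CPM, a change of 3.11 log2 units (SE 0.45, adjusted p = 0.00022), on 14 counts in the unirradiated libraries together and 103 at 8 d. With so few control counts Nog passed the count filter through irradiated libraries and could hardly have been called lower.

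In the TGF-beta and activin branch 9 of 28 genes rose and 4 fell. Inhba, the gene of the activin A subunit (chromosome 13, 16011851 to 16031621, plus strand), was at 0.414, 0.258 and 0.325 CPM and 2.48, 2.07 and 3.08 CPM, a change of 2.92 log2 units (SE 0.30, adjusted p = 1.6e-05). Thbs1, thrombospondin 1, which can activate latent TGF-beta, went from 119.6, 102 and 95.6 CPM to 248, 239 and 395 CPM, a change of 1.48 log2 units (SE 0.20, adjusted p = 0.00013), and the induced matrix protein gene Tgfbi from 103, 108 and 94.3 CPM to 328, 251 and 219 CPM, a change of 1.38 log2 units (SE 0.20, adjusted p = 0.00022). The negative regulator Smad7 was lower, at 61.6, 67.5 and 62.9 CPM and 35.2, 30.9 and 41.5 CPM, a change of -0.84 log2 units (SE 0.14, adjusted p = 0.00075). All 4 genes had separate groups. Inhba, near the floor in the controls, passed the count filter through irradiated libraries and could hardly have been called lower.

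Other growth factor lists were mixed. Wnt genes were called higher in 7 and lower in 8 of 38, but leaving out 1 library gave 3 to 5 higher and 5 to 8 lower. Wnt7b, made by alveolar and airway epithelium, rose from 2.34, 1.77 and 2.57 CPM to 8.57, 6.94 and 7.38 CPM, a change of 1.77 log2 units (SE 0.23, adjusted p = 9.4e-05), and Wnt7a by 1.20 (SE 0.19), whereas the receptor Fzd4, which serves endothelium, fell from 100, 90.7 and 69.8 CPM to 40.7, 32.6 and 38 CPM, a change of -1.23 log2 units (SE 0.18, adjusted p = 0.00021). In the IGF list 5 of 16 genes fell and 3 rose, with 1 or 2 higher when 1 library was left out. Igf1, a growth factor that macrophages and fibroblasts make, was at 37.1, 36.2 and 42.5 CPM and 89.9, 87.6 and 86.4 CPM, a change of 1.19 log2 units (SE 0.19, adjusted p = 0.00049), and its binding protein gene Igfbp3 at 31.3, 36.5 and 32.1 CPM and 8.34, 8.06 and 6.92 CPM, a change of -2.10 log2 units (SE 0.17, adjusted p = 3.7e-06). The ligand was higher and the binding protein lower in every 8 d library. In FGF, EGF and HGF signalling 5 of 28 were lower and 5 higher (3 higher without unirradiated replicate 1 or 3), with Fgf1 at -1.03 (SE 0.15) and the EGF receptor ligand Hbegf at 0.68 (SE 0.12). Of 12 hedgehog genes 2 rose and 1 fell, with 1 to 3 higher when 1 library was left out. Hhip, which encodes the inhibitor that binds hedgehog ligands, rose from 27.4, 26.5 and 24.1 CPM to 69.4, 56.6 and 73.2 CPM, a change of 1.35 log2 units (SE 0.18, adjusted p = 0.00011). Of 15 YAP and TAZ targets 3 rose and 2 fell, shares of 20% and 13.3%. The higher and lower shares were 17.9% each for FGF, EGF and HGF signalling. They were 18.4% and 21.1% for Wnt and 16.7% and 8.33% for hedgehog genes. All stand beside 13% higher and 10.6% lower of all genes.

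Conducting airway lists had few members called. Of 24 ciliated cell genes 2 were called lower and none higher, a share of 8.33% against the 10.6% of all genes, and of 14 club and goblet genes 3 were lower, 21.4%, and none higher (median log2 change -0.39). Sec14l3, a lipid-binding protein of ciliated cells (chromosome 11, 4064841 to 4077736, plus strand), was at 3416, 3733 and 3803 CPM and 1921, 1774 and 2200 CPM, a change of -0.89 log2 units (SE 0.17, adjusted p = 0.00188), and the tubulin-binding Tppp3 at 350.1, 418 and 361 CPM and 216, 169 and 205 CPM, a change of -0.94 log2 units (SE 0.19, adjusted p = 0.00267). The ciliogenesis regulator Foxj1 had a log2 change of -0.02 (SE 0.28) and did not pass. In club cells Cbr2, a carbonyl reductase, went from 3633, 5552 and 4215 CPM to 2082, 1670 and 2191 CPM, a change of -1.17 log2 units (SE 0.26, adjusted p = 0.00516). Scgb1a1, the club cell secretory protein, was at 13300, 24670 and 18620 CPM and 9504, 9747 and 9059 CPM, lower in all 3 libraries (adjusted p = 0.0158). The call of Scgb1a1 was lost without unirradiated replicate 2, its highest library (adjusted p = 0.0818). Secretory genes of the large airways set the third libraries of both groups apart. Bpifa1, a secreted defence protein, was at 0.113, 0.369 and 102 CPM without irradiation and 2.58, 1.17 and 144 CPM at 8 d. Bpifb1, a relative of it, was at 0.339, 2.33 and 90 CPM and 4.22, 2.66 and 96 CPM, and Scgb3a1, a secretoglobin, at 3.69, 10.7 and 220.4 CPM and 5.34, 4.64 and 149 CPM. None of the 3 was called, but without unirradiated replicate 3 Bpifa1 and Bpifb1 were called higher, at log2 changes of 7.63 (adjusted p = 0.0153) and 4.68 (adjusted p = 0.0282), and without 8 d replicate 3 Scgb3a1 was called lower, at -3.97 (adjusted p = 0.0437). Neuroendocrine and tuft cell genes gave no call among 9 tested.

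In a list of 15 basal and squamous genes 8 had enough counts to be tested and 3 were called higher, all from low levels. The call of Trp63, a basal cell transcription factor, was lost in 6 settings, without each 8 d replicate in turn, without unirradiated replicate 1 or 2, and in a fit of the 6 samples alone (adjusted p from 0.0588 to 0.155). Sprr1a, which encodes a protein of the cornified envelope, was at 0.64, 0.406 and 0.325 CPM and 6.04, 4.68 and 3.92 CPM, a change of 3.40 log2 units (SE 0.27, adjusted p = 2.4e-06), and Ly6d at 0.942, 1.25 and 3.22 CPM and 8.39, 11.3 and 7.04 CPM, a change of 2.30 log2 units (SE 0.43, adjusted p = 0.00148). Ly6d is also expressed by B cells. The basal keratin Krt5 was not tested, with 10 counts in the unirradiated libraries together and 4 at 8 d, and RNA of this defining gene was thus close to absent in both groups. A low gene that passed the filter through its 8 d libraries alone could hardly be called lower, so the 3 of 8 do not stand for the whole list. Junction and transport genes were lower in 7 of 24 and higher in none, a count that was 4 without 8 d replicate 1 and 3 without unirradiated replicate 1. The water channel Aqp1, which sits mainly in lung endothelium, was at 372, 442 and 379 CPM and 141, 124 and 112 CPM, a change of -1.66 log2 units (SE 0.18, adjusted p = 2.6e-05), and the chloride channel Cftr at 20.2, 15.9 and 15.8 CPM and 9.32, 9.14 and 9.13 CPM, a change of -0.91 log2 units (SE 0.16, adjusted p = 0.00079). Cdh1 and Epcam, general epithelial markers, did not pass (log2 changes -0.05, SE 0.15, and -0.22, SE 0.12).

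Genes that metabolise foreign compounds formed a further group that fell, with 15 of 32 lower and 4 higher (median log2 change -0.50). Fmo1, a flavin monooxygenase (chromosome 1, 162829561 to 162866610, minus strand), was at 518, 601 and 505 CPM without irradiation and 116, 113 and 116 CPM at 8 d, a change of -2.24 log2 units (SE 0.23, adjusted p = 1.6e-05). Aox3, an aldehyde oxidase, was at 204, 214 and 219.7 CPM and 72.1, 57.1 and 78.8 CPM, a change of -1.62 log2 units (SE 0.18, adjusted p = 3.8e-05). Sult1a1, a sulfotransferase, was at 108, 127 and 60.9 CPM and 24.9, 31 and 32.6 CPM, a change of -1.74 log2 units (SE 0.28, adjusted p = 0.00056). The 8 d libraries were low and close to each other in all 3 genes. Of the cytochromes P450, Cyp2d22 changed by -1.92 (SE 0.22) and Cyp4b1 by -1.52 (SE 0.26) on the log2 scale, and Fmo2, the main flavin monooxygenase of lung, by -1.44 (SE 0.24).

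Among the 4 that rose, Ces2e, a carboxylesterase (chromosome 8, 104926260 to 104934672, plus strand), was at 4.97, 4.58 and 4.12 CPM in unirradiated lung and 89.8, 124 and 95.9 CPM at 8 d, a change of 4.50 log2 units (SE 0.33, adjusted p = 1.5e-06). Carboxylesterase and cytochrome genes belong to families of close copies, and the sources used here do not say how reads shared between copies were counted, so their values are uncertain to that extent. Akr1b8, an aldo-keto reductase, rose from 16, 22.9 and 32.4 CPM to 57.9, 73.5 and 59.2 CPM, a change of 1.42 log2 units (SE 0.21, adjusted p = 0.00026). Among NRF2 targets and glutathione genes 8 of 25 rose and 1 fell, and 5 were higher in a fit of the 6 samples alone, without 8 d replicate 2 or without unirradiated replicate 1. Hmox1, heme oxygenase, was at 31.1, 33.4 and 39.5 CPM and 76.5, 86.1 and 67.1 CPM, a change of 1.14 log2 units (SE 0.15, adjusted p = 0.00014), Srxn1, which repairs oxidised peroxiredoxins, at 13.8, 15.1 and 16.3 CPM and 35.1, 32.9 and 25.8 CPM, a change of 1.05 log2 units (SE 0.14, adjusted p = 0.0001), and Gclc, the rate-limiting enzyme of glutathione synthesis, rose by 0.79 (SE 0.12). Gstm1, a glutathione transferase of a family of close copies, was the member that fell, with a log2 change of -1.07 (SE 0.17).

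In the prostaglandin and leukotriene pathway 9 of 28 genes rose and 1 fell. Enzymes and receptors of prostaglandin E2 and prostacyclin were among those higher. Ptges, the inducible prostaglandin E synthase, was at 4.29, 4.95 and 7.48 CPM and 18.7, 14.1 and 12.7 CPM, a change of 1.44 log2 units (SE 0.22, adjusted p = 0.00033), and the receptor Ptger4 at 4.22, 3.76 and 2.75 CPM and 10, 9.46 and 8.88 CPM, a change of 1.40 log2 units (SE 0.19, adjusted p = 0.00014). Ptgs2, the inducible cyclooxygenase, rose by 0.94 (SE 0.19). The gene that fell was Hpgd, whose product starts the breakdown of prostaglandins (chromosome 8, 56294585 to 56321043, plus strand), at 1149, 1273 and 1028 CPM and 247, 303 and 309 CPM, a change of -2.00 log2 units (SE 0.23, adjusted p = 3.9e-05). Hpgd is a marker of general capillary cells as well and is counted in both lists. With a level this high it sets the list's summed level, which was 1487 to 1734 CPM without irradiation and 812.8 to 882 CPM at 8 d although most called members rose.

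**Figure D3:**
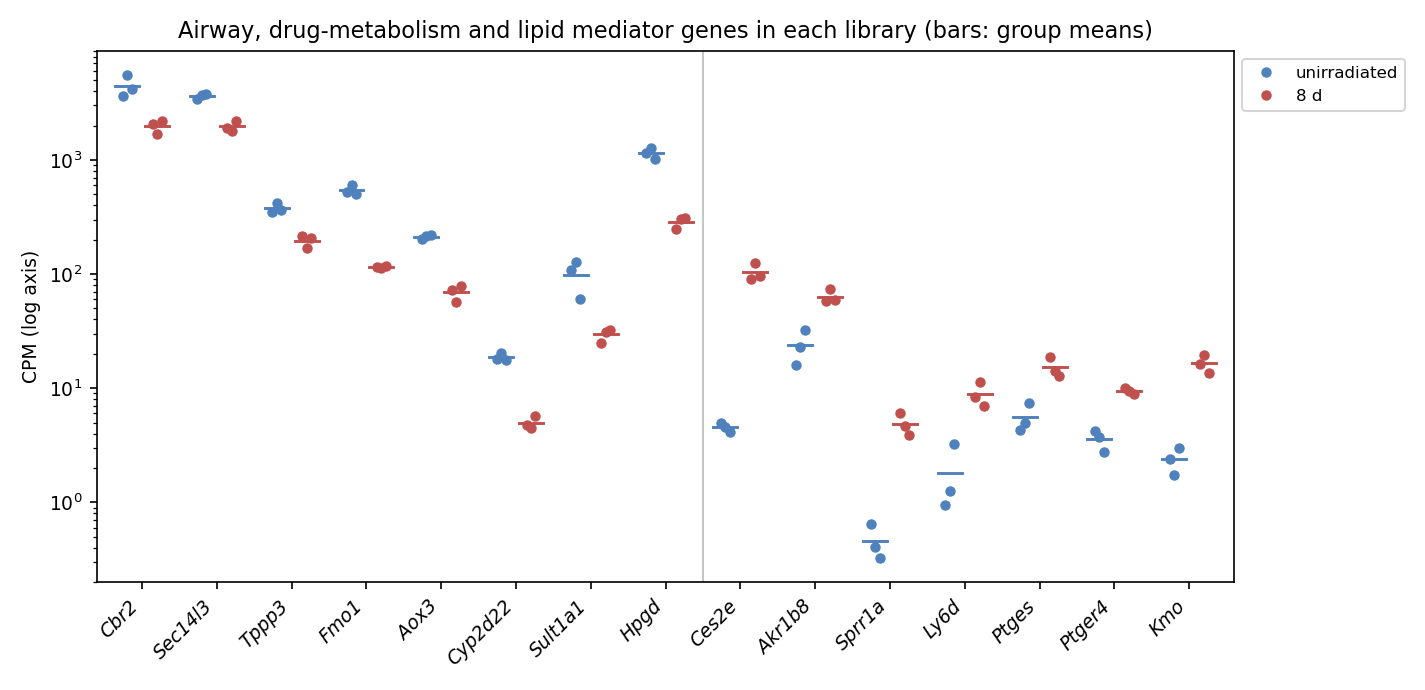
CPM on a log axis of 15 genes of airway cells, drug metabolism, lipid mediators and tryptophan metabolism in each unirradiated (blue) and 8 d library (red), with bars at the group means. The 8 genes to the left of the grey line were lower in every 8 d library and the 7 to the right were higher in every one, Ces2e by the widest margin.

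Arginine, polyamine and kynurenine genes rose in 9 of 22 cases and fell in none. Kmo, which converts kynurenine to its hydroxylated form (chromosome 1, 175620381 to 175662116, plus strand), was at 2.41, 1.73 and 3 CPM and 16.3, 19.5 and 13.7 CPM, a change of 2.79 log2 units (SE 0.26, adjusted p = 7e-06). Haao, which acts later in the same route to NAD, rose by 1.53 (SE 0.24). Arg1, arginase 1, was at 2.71, 3.73 and 3.47 CPM and 17.9, 15.4 and 6.79 CPM, a change of 2.01 log2 units (SE 0.34, adjusted p = 0.00067), and Ass1, which regenerates arginine, rose by 1.20 (SE 0.15). The nitric oxide synthase gene of macrophages, Nos2, rose by 1.01 (SE 0.23). Leukocytes express several of these enzymes, and the part of the higher pan-leukocyte level in these changes was not tested.

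In the list of glycolysis and hypoxia genes 8 of 28 rose and 4 fell, and 5 rose without unirradiated replicate 1 or 2. The hypoxia factors themselves diverged. Hif1a went from 112, 94.7 and 125 CPM to 177, 175 and 173 CPM, a change of 0.66 log2 units (SE 0.14, adjusted p = 0.00418), while Epas1, given above, and Hif3a, with -2.34 (SE 0.40), fell. Of the enzymes, Hk3, the hexokinase of leukocytes, rose by 1.88 (SE 0.29) and Ldha, lactate dehydrogenase A, by 0.57 (SE 0.11), and the regulator Pfkfb3 changed by -0.90 (SE 0.14).

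Fatty acid genes were called in both directions, 5 of 31 each way, with 3 lower when the replicate number was a block in the fit, and 3 to 5 in either direction when 1 library was left out. The share of 16.1% each way stands beside 13% higher and 10.6% lower of all genes. Scd1, stearoyl-CoA desaturase (chromosome 19, 44394455 to 44407879, minus strand), was at 743, 540 and 1045 CPM and 2378, 1980 and 2390 CPM, a change of 1.54 log2 units (SE 0.22, adjusted p = 0.00019), and Cpt1c, a brain-type carnitine palmitoyltransferase, at 3.47, 3.69 and 2.57 CPM and 12, 13.6 and 12.4 CPM, a change of 1.97 log2 units (SE 0.16, adjusted p = 3.7e-06). Elovl5, a fatty acid elongase, fell from 234 ± 15.7 to 146 ± 4.16 CPM (log2 change -0.68, SE 0.11). Cholesterol synthesis genes were higher in 5 of 24 and respiratory chain genes in 6 of 39, none lower, and both counts rest on few libraries, with 2 to 5 and 1 to 8 when 1 library was left out. The shares of 20.8% and 15.4% stand beside 13% of all genes. With library size as the sole scaling, and with DESeq2, the respiratory count was 12.

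The other stress lists differed in their share of calls. The heat shock list had 1 of 15 lower and none higher, and the unfolded protein response 3 of 22 higher and 2 lower. The unfolded protein shares of 13.6% and 9.09% were near the 13% and 10.6% of all genes. The heat shock share of 6.67% lower was below 10.6%. Herpud1, a component of endoplasmic reticulum degradation, was at 208, 204 and 150 CPM and 71, 86.6 and 85.4 CPM, a change of -1.21 log2 units (SE 0.17, adjusted p = 0.00022). Of 22 genes of the integrated stress response 6 rose and 1 fell. Atf3, a stress-induced transcription factor that is also an immediate early gene, was at 3.99, 4.02 and 7.7 CPM and 23, 24.5 and 27.9 CPM, a change of 2.26 log2 units (SE 0.27, adjusted p = 4.9e-05). Mthfd2, of mitochondrial folate metabolism, was at 4.67, 5.5 and 5.06 CPM and 16.6, 17.6 and 15 CPM, a change of 1.69 log2 units (SE 0.17, adjusted p = 1.2e-05), and Psat1, of serine synthesis, rose by 1.09 (SE 0.15). Metal-handling genes rose in 8 of 23 and fell in 2, with 4 higher without unirradiated replicate 1. Slc11a1, a metal transporter of phagosomes, was at 3.32, 3.1 and 4.3 CPM and 17, 14.5 and 14 CPM, a change of 2.08 log2 units (SE 0.25, adjusted p = 5.7e-05), and Steap4, a metalloreductase, at 6.74, 7.45 and 10.3 CPM and 26.1, 44.4 and 32.5 CPM, a change of 2.07 log2 units (SE 0.26, adjusted p = 7.6e-05). Lysosomal genes were higher in 8 of 32 with 3 to 10 when 1 library was left out.

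Genes of DNA replication rose in 14 of 32 cases and fell in none (median log2 change 0.41), and 9 rose without unirradiated replicate 2. Rrm1, a ribonucleotide reductase subunit, was at 48.3, 49.9 and 55 CPM and 79.6, 99.7 and 82.3 CPM, a change of 0.77 log2 units (SE 0.12, adjusted p = 0.00053), and the replication initiator Mcm10 at 2.45, 2.18 and 2.96 CPM and 7.82, 5.04 and 5.88 CPM, a change of 1.30 log2 units (SE 0.21, adjusted p = 0.00053). Ccne1, cyclin E1, rose by 1.40 (SE 0.24) and Uhrf1, which maintains DNA methylation at the fork, by 0.77 (SE 0.15). The repair list had 7 of 34 higher and none lower at small sizes, 4 with the replicate number as a block, 1 without unirradiated replicate 1 and 0 without unirradiated replicate 2.

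Matrix genes were read in 5 lists. Of 30 genes of interstitial collagens and their crosslinking 12 rose and 1 fell (median log2 change 0.22). Col1a1 (chromosome 11, 94936224 to 94953042, plus strand), the main fibrillar collagen, was at 97, 82.4 and 106 CPM and 339.9, 167 and 299 CPM, a change of 1.50 log2 units (SE 0.24, adjusted p = 0.00053), and Col3a1 at 410.1, 259 and 597 CPM and 1134, 911 and 1204 CPM, a change of 1.36 log2 units (SE 0.26, adjusted p = 0.0018). In 8 d replicate 2 the level of Col1a1 was the lowest of the irradiated libraries and still above all controls. Lox, the collagen crosslinking oxidase, rose by 1.04 (SE 0.17). Basement membrane genes were called in both directions, 3 higher and 5 lower of 25. Those shares of 12% and 20% stand beside 13% and 10.6% of all genes. Col18a1, the source of endostatin, rose from 30.7, 24.9 and 24 CPM to 102, 59.6 and 96.3 CPM, a change of 1.70 log2 units (SE 0.21, adjusted p = 7.2e-05), and Npnt, the integrin ligand nephronectin of alveolar epithelium, fell from 539.6, 462 and 503 CPM to 279.9, 230.2 and 341 CPM, a change of -0.82 log2 units (SE 0.16, adjusted p = 0.00238). The count of lower genes was 1 to 5 when 1 library was left out, lowest without unirradiated replicate 1, and Npnt kept its call in all settings.

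Elastic fibre genes divided, with 5 of 17 higher and 5 lower, and between 2 and 4 lower when 1 library was left out. Fbn1, the microfibril backbone, was at 85.6, 65.4 and 90.7 CPM and 225, 135 and 215 CPM, a change of 1.25 log2 units (SE 0.22, adjusted p = 0.00088). Mfap2, a microfibril component that binds it, went the other way, at 78.6, 88.8 and 75.5 CPM and 25.5, 20.4 and 23.7 CPM, a change of -1.80 log2 units (SE 0.16, adjusted p = 5.4e-06), as did Ltbp4, which binds latent TGF-beta and supports elastic fibre assembly (-1.50, SE 0.30). Of the hyaluronan synthases Has2 rose, and Has1 and Has3 did not pass the test. Has2, the inducible hyaluronan synthase, was at 0.64, 0.332 and 0.506 CPM and 2.53, 4.19 and 3.25 CPM, a change of 2.74 log2 units (SE 0.32, adjusted p = 4.6e-05), on 40 counts in unirradiated lung and 225 at 8 d. It needed irradiated libraries to pass the count filter and could hardly have been called lower. The proteoglycan gene Vcan, versican (chromosome 13, 89655312 to 89742509, minus strand), was at 6.44, 6.31 and 6.04 CPM and 29.6, 24 and 26.2 CPM, a change of 2.09 log2 units (SE 0.19, adjusted p = 7.3e-06), and Tnfaip6, which links protein chains to hyaluronan, rose by 2.43 (SE 0.38). In the list as a whole 9 of 25 rose and 6 fell, with 3 lower without 8 d replicate 1 or without unirradiated replicate 1 or 2. Among those that fell were the small proteoglycan genes Dcn (-0.97, SE 0.23) and Prelp (-0.64, SE 0.15).

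Metalloproteinases and their inhibitors rose in 14 of 31 cases and fell in 3. Timp1, the inducible inhibitor (chromosome X, 20870166 to 20874735, plus strand), was at 6.52, 4.95 and 5.89 CPM and 46.1, 69.5 and 38.8 CPM, a change of 3.15 log2 units (SE 0.24, adjusted p = 2.3e-06). Mmp12, the elastase of macrophages, was at 4.75, 5.79 and 4.23 CPM and 27.5, 49.2 and 26.6 CPM, a change of 2.80 log2 units (SE 0.24, adjusted p = 4.6e-06), and the collagenase gene Mmp13 at 0.565, 0.701 and 0.65 CPM and 3.09, 4.95 and 3.08 CPM, a change of 2.53 log2 units (SE 0.34, adjusted p = 0.00014). Within each of these, 8 d replicate 2 was the highest library. Mmp2, a gelatinase of fibroblasts, rose by 1.43 (SE 0.17) and Mmp8, the neutrophil collagenase, by 2.32 (SE 0.35). The genes that fell include Mmp28, at 8.89, 12 and 6.47 CPM and 2.72, 1.17 and 2.46 CPM, a change of -2.10 log2 units (SE 0.31, adjusted p = 0.00024), and the matrix-bound inhibitor Timp3, at 1769, 1839 and 1069 CPM and 916, 792 and 935 CPM, a change of -0.82 log2 units (SE 0.20, adjusted p = 0.0086).

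**Figure D4:**
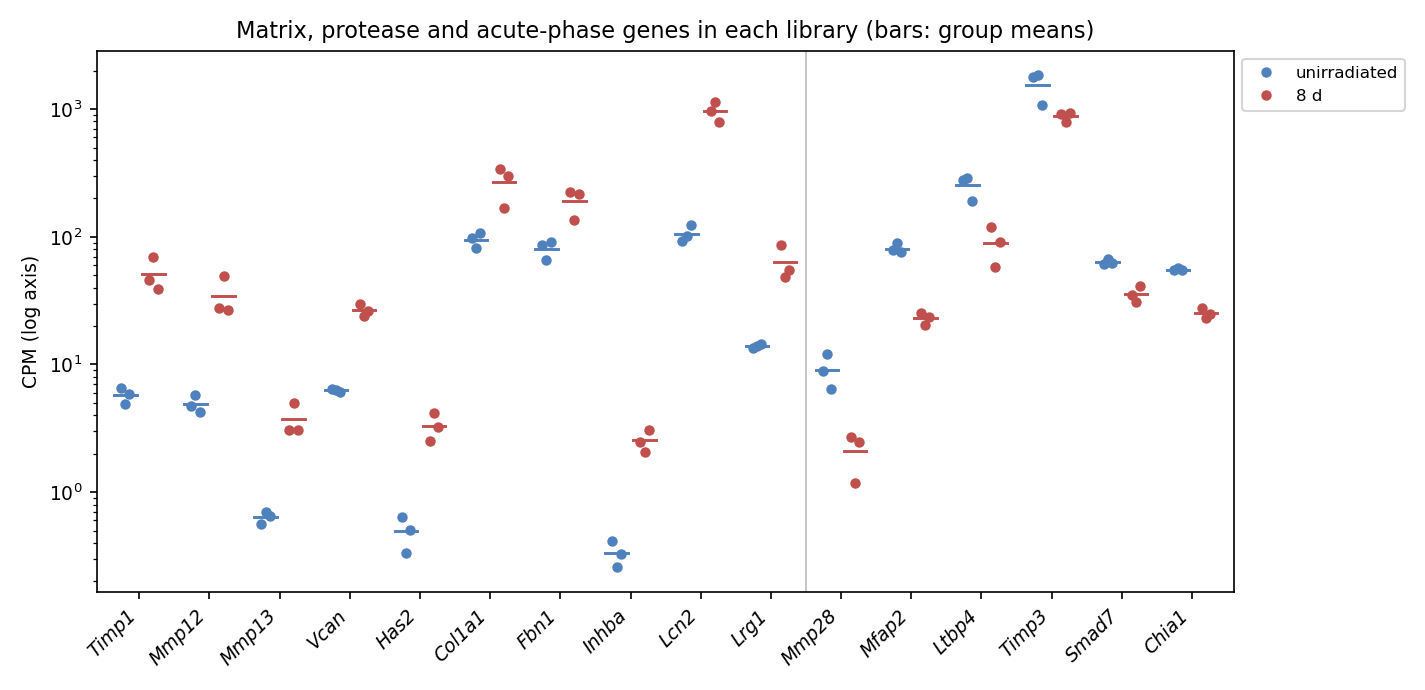
CPM on a log axis of 16 genes of matrix, proteases, signalling and acute-phase proteins in each unirradiated (blue) and 8 d library (red), with bars at the group means. The 10 genes left of the grey line were higher and the 6 right of it lower in every 8 d library, and Timp1 and Lcn2 show a wide gap.

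Acute-phase and airway defence proteins rose in 14 of 27 cases and fell in 1 (median log2 change 1.20). Lcn2, which withholds iron from bacteria (chromosome 2, 32384633 to 32388252, minus strand), was at 92.3, 101 and 124 CPM and 969, 1135 and 786 CPM, a change of 3.18 log2 units (SE 0.18, adjusted p = 1.9e-07). Lrg1, a glycoprotein that acts on vessels, went from 13.5, 14 and 14.4 CPM to 86.9, 48.7 and 55 CPM, a change of 2.19 log2 units (SE 0.22, adjusted p = 1.2e-05), and the protease inhibitor gene Serpina3n from 51, 56.5 and 37.5 CPM to 250, 226 and 184 CPM, a change of 2.19 log2 units (SE 0.24, adjusted p = 3.4e-05). Retnla, which epithelium and macrophages make in type 2 inflammation, was at 8.36, 18.3 and 20.4 CPM and 99, 138 and 109.8 CPM, a change of 2.88 log2 units (SE 0.28, adjusted p = 1.1e-05). Saa3 lay at 0.339, 0.258 and 1.12 CPM without irradiation and 32.4, 95 and 28.9 CPM at 8 d, with 8 d replicate 2 the highest. Serum amyloid A and Serpina3 genes have close copies in the genome, and their separate values are uncertain. The gene that fell was Chia1, the acidic chitinase of airway and alveolar epithelium, at 54.5, 56.6 and 55.1 CPM and 27.5, 23.3 and 24.7 CPM, a change of -1.14 log2 units (SE 0.16, adjusted p = 0.00017).

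Promoters of this list were searched for the short C/EBP motif TTGCNNAA on both strands, since C/EBP factors are known to drive acute-phase genes. RefSeq promoter windows (build GRCm38.p6, 250 bases before to 50 bases after each start) were found for 13 of the 14 genes that rose, and 9 of these genes, 69.2%, held the motif, beside 12.2% of the 27025 genes in the table. Over all tested members of the list, whether they rose or not, 15 of 23 with an entry held it, 65.2%, so the share was close to that of the members that rose. The consensus of NF-kB was found in 4 of the 13, 30.8%, in 5 of the 23, 21.7%, and in 5.14% of all genes. These are matches of letters and not measured binding. The 250 bases before the start are shown for 3 genes that rose, with C/EBP matches of Lcn2 and Saa3 (that of Saa3 on the opposite strand) and the NF-kB match of Serpina3g in capitals.
Lcn2, chr2:32387740-32387989, minus strand: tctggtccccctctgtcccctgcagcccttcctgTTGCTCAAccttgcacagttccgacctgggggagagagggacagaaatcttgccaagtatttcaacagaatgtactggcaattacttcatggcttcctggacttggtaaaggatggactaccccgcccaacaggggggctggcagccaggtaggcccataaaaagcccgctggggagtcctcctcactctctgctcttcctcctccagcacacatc
Saa3, chr7:46715677-46715926, minus strand: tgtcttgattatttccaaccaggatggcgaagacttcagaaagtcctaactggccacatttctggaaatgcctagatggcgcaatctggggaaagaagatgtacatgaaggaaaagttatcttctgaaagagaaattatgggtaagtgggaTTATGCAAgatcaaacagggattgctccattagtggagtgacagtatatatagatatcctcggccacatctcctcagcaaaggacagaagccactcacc
Serpina3g, chr12:104235897-104236146, plus strand: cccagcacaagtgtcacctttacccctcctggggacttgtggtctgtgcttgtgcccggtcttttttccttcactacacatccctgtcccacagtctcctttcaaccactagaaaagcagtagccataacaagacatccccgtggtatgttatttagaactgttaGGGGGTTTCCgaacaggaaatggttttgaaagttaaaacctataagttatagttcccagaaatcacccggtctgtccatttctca

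Clock genes were lower in 11 of 19 cases and higher in 3 (median log2 change -0.61). The count of lower genes was 6 without 8 d replicate 2 or unirradiated replicate 1, and 7 without unirradiated replicate 2. The sources used here do not give the time of day of tissue collection, and a difference in it cannot be told apart from the groups. Unirradiated replicate 3 stood apart in Dbp, an output factor, at 104, 91 and 228 CPM against 106, 95 and 93.7 CPM at 8 d, and in the repressor gene Nr1d1, at 63, 57.7 and 143 CPM against 88.7, 46.8 and 51.6 CPM. Neither was called, and without that library their log2 changes were 0.002 and 0.04 in place of -0.52 and -0.50. The count of lower genes without it was 10. Nr1d2, a repressor within the clock, was at 159.7, 143 and 150 CPM and 76.7, 98.8 and 91.5 CPM, a change of -0.76 log2 units (SE 0.13, adjusted p = 0.00061). The output factors Hlf and Tef, which bind the D-box, were at 35.4, 32.3 and 34.3 CPM against 15.4, 11.8 and 18.6 CPM (log2 change -1.15, SE 0.20, adjusted p = 0.00091) and 233, 224 and 173 CPM against 120.4, 103 and 121 CPM (log2 change -0.87, SE 0.18, adjusted p = 0.00331). Per3 and Ciart, repressors of the loop, changed by -0.91 and -0.70 on the log2 scale, but both calls were lost when single libraries were left out, that of Ciart without unirradiated replicate 3 (adjusted p = 0.0629). The 3 members that rose were Arntl, the activator that partners CLOCK, from 1.73, 1.92 and 1.77 CPM to 2.34, 5.09 and 4.5 CPM, a change of 1.14 log2 units (SE 0.28, adjusted p = 0.00975), Nfil3, a repressor at D-boxes, by 1.18 (SE 0.18), and Bhlhe40, a repressor at E-boxes, by 0.58 (SE 0.14). Arntl lay higher, and Nr1d2, Hlf and Tef lower, in every 8 d library than in every control.

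The E-box CACGTG, through which CLOCK and BMAL1 act, was found in the promoter windows of 4 of the 9 clock genes called lower that have a RefSeq entry, 44.4%, and of 5 of the 16 tested clock genes with one, 31.2%, beside 8.09% of all genes. The D-box TTATGNAA was in 2 of the 9, 22.2%, and 2 of the 16, 12.5%, beside 3.99%. Neither was found in the 2 higher members with an entry. The 250 bases before the start of Ciart, of both annotated starts of Tef and of Per3 are shown, with the E-boxes of the former 3 and the D-boxes of Per3 in capitals.
Ciart, chr3:95882229-95882478, minus strand: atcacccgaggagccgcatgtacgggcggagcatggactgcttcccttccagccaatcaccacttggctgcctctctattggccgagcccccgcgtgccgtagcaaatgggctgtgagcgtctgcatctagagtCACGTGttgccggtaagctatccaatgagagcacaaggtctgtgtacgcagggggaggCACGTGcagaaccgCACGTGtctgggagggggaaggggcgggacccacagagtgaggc
Tef (start 1), chr15:81802423-81802672, plus strand: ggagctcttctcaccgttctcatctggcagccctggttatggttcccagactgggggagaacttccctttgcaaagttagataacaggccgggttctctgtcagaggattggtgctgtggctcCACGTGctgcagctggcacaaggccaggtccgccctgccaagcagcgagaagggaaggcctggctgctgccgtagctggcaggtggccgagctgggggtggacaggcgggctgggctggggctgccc
Tef (start 2), chr15:81811164-81811413, plus strand: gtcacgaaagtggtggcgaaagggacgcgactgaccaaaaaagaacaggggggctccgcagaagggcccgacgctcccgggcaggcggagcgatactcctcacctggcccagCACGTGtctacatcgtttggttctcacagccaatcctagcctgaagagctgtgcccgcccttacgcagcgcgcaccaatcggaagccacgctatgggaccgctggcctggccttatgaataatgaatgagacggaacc
Per3, chr4:151044666-151044915, minus strand: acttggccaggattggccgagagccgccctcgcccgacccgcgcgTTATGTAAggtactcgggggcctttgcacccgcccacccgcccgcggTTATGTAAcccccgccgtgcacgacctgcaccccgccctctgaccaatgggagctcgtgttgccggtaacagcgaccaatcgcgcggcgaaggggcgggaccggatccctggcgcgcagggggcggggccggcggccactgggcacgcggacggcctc

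Outside the lists, the genes with the largest changes came from varied functions. Ano3, of the anoctamin membrane protein family, was at 0.226, 0.0369 and 0.181 CPM and 5.72, 4.86 and 6 CPM, a change of 5.18 log2 units (SE 0.35, adjusted p = 6.7e-07), and Cgref1, a secreted calcium-binding protein, at 1.17, 0.812 and 0.831 CPM and 14.1, 15.6 and 13.1 CPM, a change of 3.92 log2 units (SE 0.20, adjusted p = 8.5e-08). Sncg, synuclein gamma (chromosome 14, 34370274 to 34374789, minus strand), was at 5.99, 11.2 and 8.38 CPM and 75.6, 99.6 and 84.4 CPM, a change of 3.34 log2 units (SE 0.26, adjusted p = 2.4e-06). Separate groups were a condition for naming these 3 genes, so the gap adds no support. Ano3 rested on 12 counts in the unirradiated libraries together and 374 at 8 d. It passed the count filter through irradiated libraries and could hardly have been called lower. Lif, an interleukin-6 family cytokine (chromosome 11, 4257557 to 4272514, plus strand), was at 1.21, 0.738 and 1.84 CPM and 12.2, 12.2 and 13.1 CPM, a change of 3.30 log2 units (SE 0.25, adjusted p = 1.8e-06), and Slc26a4, the anion exchanger pendrin of airway epithelium, at 1.36, 0.184 and 0.94 CPM and 8.57, 19 and 8.54 CPM, a change of 3.86 log2 units (SE 0.46, adjusted p = 5.6e-05). Kng2, a kininogen, rose by 4.64 (SE 0.40), A2m, alpha-2-macroglobulin, by 3.61 (SE 0.47), Prnd, which encodes the prion-like protein doppel, by 3.13 (SE 0.28), and Ddias, a DNA damage-induced apoptosis suppressor, by 3.78 (SE 0.30).

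On the lower side, Slc5a12, a lactate transporter, was at 7.61, 8.15 and 8.42 CPM and 0.609, 0.676 and 0.625 CPM, a change of -3.65 log2 units (SE 0.40, adjusted p = 3e-05), and Cdh16, a kidney-type cadherin, at 16.4, 13.7 and 12.7 CPM and 1.73, 1.4 and 1.58 CPM, a change of -3.18 log2 units (SE 0.25, adjusted p = 2.4e-06). Both groups were tight, and their separation was a condition for naming the genes. Cytl1, a cytokine-like protein, changed by -2.57 (SE 0.41) and Ankrd63 by -3.30 (SE 0.36) on the log2 scale. Zbtb16 and Fam107a are known targets of the glucocorticoid receptor. The zinc finger repressor Zbtb16 was at 166, 158 and 63.4 CPM and 32.1, 19.7 and 13.6 CPM, a change of -2.56 log2 units (SE 0.43, adjusted p = 0.00067). Fam107a was at 199.8, 195 and 49.1 CPM and 24.6, 17.6 and 21.5 CPM, a change of -2.80 log2 units (SE 0.40, adjusted p = 0.00021). In Zbtb16 and Fam107a unirradiated replicate 3 lay far below replicates 1 and 2 and nearer to the irradiated libraries. Fkbp5 and Klf15, further targets of that receptor chosen after their values were seen, were at 139, 140.3 and 35.4 CPM against 44.6, 27.6 and 25.7 CPM and 59.9, 54.4 and 28.2 CPM against 9.14, 9.14 and 8.46 CPM. The groups of Fkbp5 overlapped, since unirradiated replicate 3 fell below 8 d replicate 1, and those of Klf15 did not. Klf9 and Tsc22d3, also targets, were looked up as well and their values are not given here. The genes shown thus do not stand for the targets of that receptor as a set.

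Some changes at 8 d had partly or wholly gone back by 11 and 14 d. A gene was counted here when it was called at 8 d and was called in the opposite direction at both later times against 8 d. Of the genes called higher at 8 d 11 met this, 0.0667% of tested genes, and of those called lower 7, 0.0425%. The 2 later comparisons use the same 8 d libraries as the first, so an unusual 8 d library enters all 3, and neither count had a gene left without 8 d replicate 3. With the replicate number as a block 12 genes were lower and turned back. Ces2e had a mean of 4.56 ± 0.427 CPM in control lung (SD, n = 3). Its means at 8, 11 and 14 d were 103 ± 18.2, 43.3 ± 18.5 and 20.9 ± 7.28 CPM. Its log2 change from 8 d was -1.25 at 11 d (adjusted p = 0.0353) and -2.31 at 14 d (adjusted p = 0.00021). Cd34, a sialomucin of endothelial, progenitor and fibroblast cells (chromosome 1, 194938819 to 194961279, plus strand), went over 216 ± 43, 654 ± 36.3, 384 ± 100.4 and 243 ± 28.1 CPM. Bcl6b, a transcriptional repressor of endothelium and lymphocytes, followed with 14.5 ± 3.15, 40.5 ± 0.868, 19.4 ± 3.52 and 11.7 ± 2.08 CPM. The 3 libraries at 8 d stood above all 9 others in each of these genes. That peak, and the p-values of the later changes, follow largely from how the genes were chosen and add no support. Cd34 and Bcl6b rose at 8 d while most endothelial list members fell.

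Nr4a1 and Cyr61 are immediate early genes. Cyr61, a matricellular protein and YAP target, was at 58.9, 53.6 and 152 CPM without irradiation, 184, 214 and 275 CPM at 8 d and means of 76.1 ± 22 and 61.8 ± 9.53 CPM at 11 and 14 d. Its call at 8 d was lost without unirradiated replicate 1 (adjusted p = 0.0507), and that of Nr4a1 was lost in 4 settings, for example without 8 d replicate 3 (adjusted p = 0.139). Part of their level can come from tissue handling, which was not tested.

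Among genes that were lower at 8 d and recovered, Pparg, the nuclear receptor of lipid metabolism that alveolar macrophages need, had means of 25.3 ± 1.8, 13.2 ± 1.79, 21.1 ± 4.14 and 26 ± 0.42 CPM. Chil3, a chitinase-like protein of alveolar macrophages with close copies in the genome, was at 611 ± 113, 169.6 ± 23, 290.3 ± 38.4 and 299 ± 30.8 CPM, still below control at the end. Mrc1, the mannose receptor, was at 198 ± 23.8, 133 ± 6.06, 199.5 ± 27 and 308 ± 19.5 CPM and ended above it. The changes of Mctp1 and Kcnk6 at 8 d were -1.20 (SE 0.18) and -0.60 (SE 0.15), and those from 8 d to 14 d 1.28 and 1.11, all log2.

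**Figure D5:**
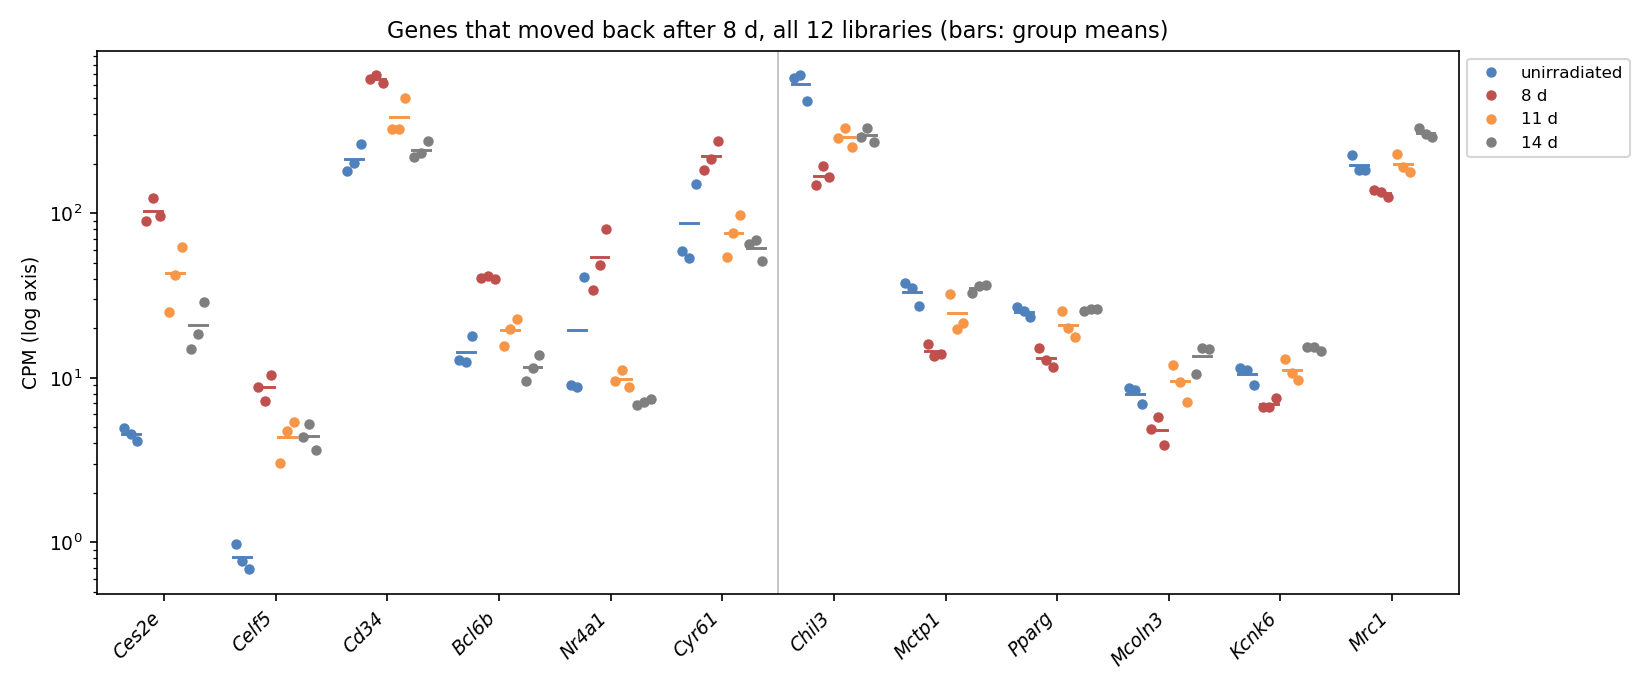
CPM on a log axis in all 12 libraries of the 6 genes with the largest 8 d rises and the 6 with the largest 8 d falls among those that moved back, for unirradiated lung (blue) and 8 d (red), 11 d (orange) and 14 d (grey) after irradiation, with bars at the group means. Ces2e, Cd34 and Bcl6b peak at 8 d, and Pparg, Mctp1 and Chil3 are lowest there.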

How the data were processed

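The authors deposited 12 tables of read counts per gene symbol, of 23282 lines each. The aligner was TopHat and the genome mm10, per the submitters' processing notes. The sources used here name no TopHat version, counting program, annotation, strand setting or treatment of multi-mapping reads. Trizol RNA went into strand-specific NEBNext Ultra II libraries, per the labels. The 35 symbols on several lines (79 lines) were summed, which left 23238 symbols.

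Counts were compared with edgeR 4.0.16 in R 4.3.3 by the quasi-likelihood test, with TMM scaling, the default expression filter (6754 symbols removed) and a fit of all 12 samples. P-values were adjusted by Benjamini-Hochberg over 16484 genes, and a gene was called below 0.05. CPM were taken on TMM-scaled library sizes, and the SE of a log2 change is its size over the root of F. The fit was also run on counts simulated from its own estimates of spread, with few changed genes and no link between replicates. That setting is milder than these data, so it does not show how the fit performs here. Alternatives were DESeq2 1.42.0, limma-voom (limma 3.58.1), other scalings and filters, a fit of the 6 samples alone, the replicate number as a block, and each library left out. No label used here says that the number marks pairs. Deviations of same-numbered samples from their group means correlated at 0.192, 0.148 and 0.162, and those of other pairs between -0.106 and -0.0359. Such deviations cancel within a group, so the negative values follow in part from the positive ones. The main fit did not use the number. Replicates differed by more than sampling noise in every pair.

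The comparison, the 55 gene lists (1175 of 1177 genes found) and the members were chosen with earlier results of these data known. In each list the rule named up to 4 called genes with the lowest p and a mean of at least 1 CPM, and up to 2 against the majority. Outside the lists it named the 12 largest changes in each direction from 5 CPM, without interferon and leukocyte families. Other genes, named for their role, were chosen after their values were seen. Coordinates are from GENCODE M21, which matched 22197 symbols, and promoters from RefSeq. Motif matches were counted on both strands of 300 bases per promoter.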

Additional observations from a re-analysis of the deposited data

Results flagged for a closer look

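Each gene below was called at 8 d against unirradiated lung and was called in the opposite direction from 8 d to 14 d, in comparisons that share the 8 d libraries. Values are log2 changes from 8 d to 14 d. Among genes higher at 8 d, Ces2e changed by -2.31, Celf5 by -0.99, Cd34 by -1.43, Bcl6b by -1.80, Nr4a1 by -2.93 and Cyr61 by -1.86. Among genes lower at 8 d, Chil3 changed by 0.82, Mctp1 by 1.28, Pparg by 0.98, Mcoln3 by 1.49, Kcnk6 by 1.11 and Mrc1 by 1.21. The cause of these returns was not tested.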

How the results depend on the processing

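Against 2139 higher and 1752 lower genes, the replicate block gave 2047 and 1657, median-of-ratios scaling 2105 and 1788, no low-count filter 2094 and 1731, DESeq2 2361 and 2096, limma-voom 2079 and 1828, and the 6 samples alone 1798 and 1350. With library size as the sole scaling there were 2438 and 1352, so that rises made up 64.3% of calls in place of 55%, and the median log2 change of all genes was 0.07 in place of 0.01. Leaving out 1 library left 1507 to 1937 higher and 1086 to 1618 lower genes, fewest without unirradiated replicate 1. The small counts of genes that turned back depend on the setting. They were 22 higher and 0 lower with library size, 17 higher with no filter, 38 and 22 with DESeq2, and 12 lower with the block, against 11 and 7. Leaving out 1 library gave 0 to 25 and 0 to 17, none of either without 8 d replicate 3, and the cause was not tested. The 6 samples alone give no such count.

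Of the 245 genes that the rule named, none changed direction in the settings tried. Most were chosen for a low p or a large change in these same libraries, so a reversal was unlikely from the start. Calls were lost for 29 without unirradiated replicate 1, 11 to 26 without any other single library, 12 in the 6 samples alone, 6 with library size, 4 with no filter and 2 with the block. With 3 samples a group, small changes at low counts could not be detected. Genes near the floor in the controls, such as Ano3, Nog, Inhba and Has2, needed irradiated libraries to pass the count filter. They could hardly have been called lower.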

Other observations

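Further genes outside the lists moved by as much as those in the report. Wfdc17, a small secreted protein of myeloid cells, was at 0.904, 1.62 and 2.2 CPM without irradiation and 7.08, 25.6 and 11.8 CPM at 8 d. The G protein regulator Rgs1, which lymphocytes express strongly, was at 1.88, 1.25 and 1.3 CPM and 16.8, 27.1 and 16.8 CPM, and the RNA-binding protein gene Celf5 at 0.98, 0.775 and 0.687 CPM and 8.76, 7.21 and 10.5 CPM. On the lower side, Fabp1, a fatty acid-binding protein best known from liver, was at 17.3, 17.2 and 17.7 CPM and 2.34, 3.6 and 2.83 CPM, and Gprc6a, an amino acid receptor, at 5.95, 7.53 and 5.89 CPM and 1.22, 1.31 and 1.08 CPM. Cpne5, a calcium-dependent lipid-binding protein, was at 9.61, 7.6 and 5.28 CPM and 1.69, 1.04 and 0.917 CPM. The rule required all 3 irradiated libraries of each of these genes to lie on one side of all 3 controls.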
